A study of Mus musculus with 26 samples.

Results

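The response of Hoxa9/Meis1-transformed mouse myeloid progenitors (H9M) to all-trans retinoic acid (ATRA) was compared between LSD1 knockout and control cells, gene by gene. The quantity examined was the interaction, that is the log2 change with ATRA in knockout cells minus the log2 change with ATRA in control cells. A positive interaction means that the knockout cells were raised more, or lowered less, by ATRA than the control cells. Every gene that passed a filter on low counts was taken, which left 13310 of the 48795 genes in the count table, measured in 12 of the 26 libraries of the series.

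The 12 libraries were total RNA sequencing of 4 groups with 3 libraries each. KO + ATRA cells were H9M progenitors with the LSD1 knockout, induced with 0.1 µM 4-hydroxytamoxifen for 72 h, and given 1 µM ATRA. KO W/O ATRA cells had the knockout and no ATRA. CTL + ATRA cells were H9M controls given 1 µM ATRA, and CTL W/O ATRA cells were H9M controls without it. All groups shared the C57BL/6 background, the transformation by Hoxa9 and Meis1, and a medium with interleukin 3, interleukin 6 and stem cell factor. The strain field reads CreERT2-;LSD1TM1Schuele for every library, knockouts included. Tamoxifen is listed for knockout cells and not for controls, so an effect of the knockout and an effect of tamoxifen or of Cre activation cannot be told apart. How long ATRA was given is not stated, and neither is whether replicate libraries were separate cultures, so p-values measure only the spread between these libraries. Depth was 22402558 to 28180054 counts per library.

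LSD1, encoded by Kdm1a, removes methyl groups from lysine 4 of histone H3 and is brought to its target genes with the CoREST scaffold by the repressors GFI1 and GFI1B. Both repressors restrain parts of the monocyte and granulocyte programs in blood progenitors. ATRA is the ligand of the retinoic acid receptors, which pair with RXR, bind DNA and exchange corepressors for coactivators, and it drives the differentiation of acute promyelocytic leukaemia cells. The interaction addresses whether loss of LSD1 changes what ATRA does in these progenitors.

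Kdm1a itself was examined first, in counts scaled to the library total (CPM). It had 11.5, 10.3 and 11.5 CPM in KO + ATRA cells and 0.937, 0.998 and 0.952 CPM in KO W/O ATRA cells, against 147, 145 and 150.2 CPM in CTL + ATRA cells and 138, 139.9 and 139 CPM in CTL W/O ATRA cells. Every knockout library lay far below every control library. The 2 knockout groups did not overlap either: KO + ATRA libraries kept 7.00 to 7.78% of the control level with the same ATRA state, and KO W/O ATRA libraries kept 0.675 to 0.718%. The interaction of Kdm1a was therefore 3.42 ± 0.11 (log2 ± SE), and whether the larger remainder in KO + ATRA libraries comes from cells that kept the gene was not tested. The interaction, the ATRA effect in knockout cells and the knockout effects were also recomputed after this share of the control counts had been taken out of the knockout libraries. Kdm1a lies at chr4:136550533-136602787 (gene coordinates here and below are those of RefSeq, GRCm38.p6).

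Across all tested genes the interaction was called at an adjusted p under 0.05 for 619 genes, 4.65% of 13310. It was called higher for 292 genes (2.19%) and lower for 327 genes (2.46%). Most called interactions were modest, with a median size of 0.42 on the log2 scale. A size of 2-fold or more was reached by 35 genes called higher (0.263%) and 47 genes called lower (0.353%), while 384 called genes lay under 0.5 on the log2 scale and 153 between 0.5 and 1. The median interaction over all tested genes was 0.01. In bulk libraries such as these, fewer cells of a type and less RNA per cell cannot be told apart.

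The ATRA response itself was larger in number and mostly shared. ATRA changed 3911 genes (29.4%) in knockout cells and 3366 genes (25.3%) in control cells. Of these, 2221 were called in both, which is 56.8% of the knockout list and 66.0% of the control list, and 2164 of the 2221 moved the same way. By comparison, the knockout changed 7161 genes (53.8%) with ATRA and 7218 genes (54.2%) without it. The interaction is the difference of the 2 ATRA effects and shares their libraries, so the following counts describe its make-up only. Among the genes called higher, 129 were raised by ATRA in both genotypes, 80 were raised in knockout cells and not called in controls, 40 were lowered in controls and not called in knockout cells, 28 were lowered in both, and 14 were raised in knockout cells and lowered in controls. Among those called lower, 125 were lowered by ATRA in knockout cells and not called in controls, 68 were raised in controls and not called in knockout cells, 55 were raised in both, 43 were lowered in knockout cells and raised in controls, and 35 were lowered in both. Of the genes in each direction, 1 was called in neither ATRA effect.

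**Figure D1:**
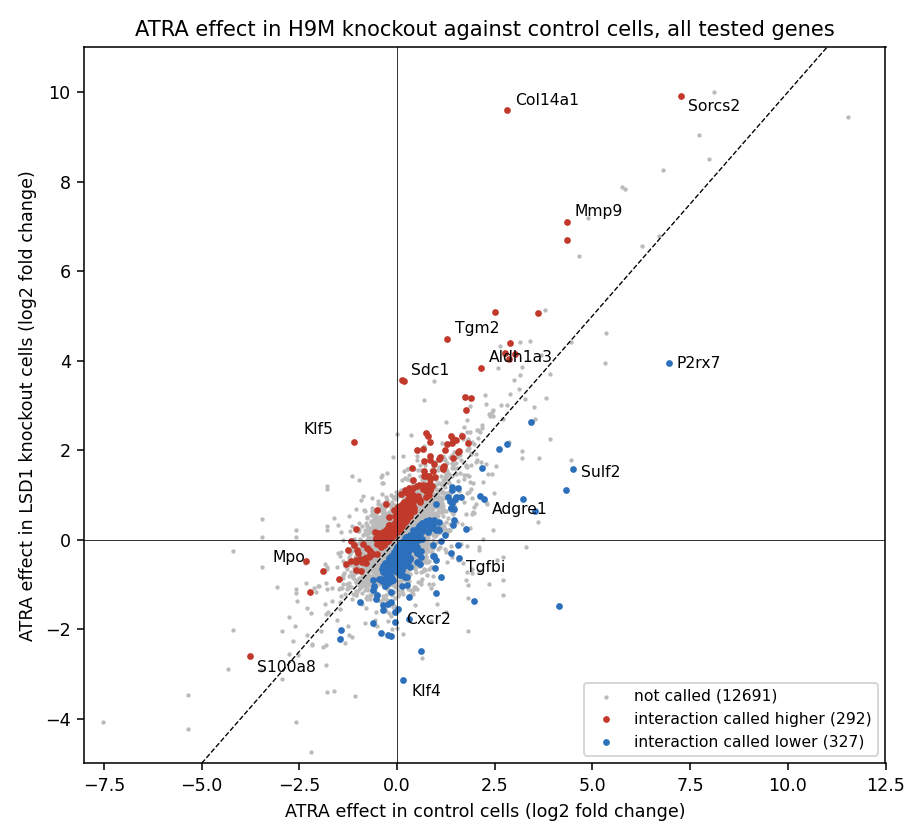
ATRA effect in LSD1 knockout cells (vertical axis) against the ATRA effect in control cells (horizontal axis), both as log2 fold changes, for the 13310 tested H9M genes. Red points are the 292 genes whose interaction was called higher, blue points the 327 called lower, grey points the rest, and the dashed line marks equal effects.

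The scale of the interaction matters for genes whose level without ATRA differs between the genotypes. On the log2 scale it is a ratio of ratios, whereas the same 4 means can also be compared as a difference of CPM. The CPM difference had the same sign as the log2 interaction for 268 of the 292 genes called higher and 304 of the 327 called lower. It had the other sign for 24 and 23 genes. Among the genes described below, the CPM difference is negative for Aldh1a3, Tgm2, Ednra, S100a8, Tspoap1, Sorcs2 and Ly6c2, which were called higher. It is positive for Adgre1, P2rx7, Sulf2, Thbs1, Itgb7 and Il10ra, which were called lower.

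ATRA raised classical retinoic acid targets in both genotypes. Cyp26b1, whose enzyme breaks down retinoic acid, had 31.8 ± 5.78 CPM in KO + ATRA and 0.0266 ± 0.0461 CPM in KO W/O ATRA cells, against 8.0 ± 1.21 CPM in CTL + ATRA and 0.0259 ± 0.0225 CPM in CTL W/O ATRA cells (SD, n = 3 each). Rarb, a retinoic acid receptor and a classical target of its own ligand, had 16.5 ± 1.16 and 0.181 ± 0.126 CPM in knockout cells with and without ATRA, against 10.8 ± 0.725 and 0.137 ± 0.0530 CPM in controls. Dhrs3, a retinaldehyde reductase, had 217 ± 2.11 and 54.1 ± 0.645 CPM in knockout cells with and without ATRA, against 85.0 ± 3.59 and 24.5 ± 1.17 CPM in controls. Its interaction was 0.20 ± 0.07 with an adjusted p of 0.102. All 3 genes were higher in KO + ATRA than in CTL + ATRA cells by the test of that difference, and none of the 3 interactions passed the test. For Cyp26b1 and Rarb the groups without ATRA hold few counts, so their interactions are imprecise.

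Of 18 tested genes of retinoid metabolism and response, 3 had an interaction called higher and 1 called lower, 22.2% of the list against 4.65% of all tested genes. ATRA raised 11 of the 18 in knockout and 12 in control cells, against 15.3% and 13.8% of all tested genes. Aldh1a3 (chr7:66390892-66427477), which encodes an enzyme that makes retinoic acid from retinaldehyde, had 302, 327 and 293 CPM in KO + ATRA cells and 22.1, 21.1 and 22.6 CPM in KO W/O ATRA cells, against 796, 825 and 823 CPM in CTL + ATRA cells and 193, 194 and 182 CPM in CTL W/O ATRA cells. No groups overlapped, and both knockout groups lay below the control group of the same ATRA state. ATRA raised it by 3.85 in knockout and 2.15 in control cells on the log2 scale, an interaction of 1.69 ± 0.07 (3.24-fold, adjusted p = 8.36e-13). In CPM the rise was smaller in the knockout, by 340 CPM (a difference of -340), so the sign depends on the scale.

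Bhlhe40, a basic helix-loop-helix repressor, had 76.4, 77.2 and 75.4 CPM in KO + ATRA cells and 25.6, 22.3 and 29.0 CPM in KO W/O ATRA cells, against 82.3, 84.0 and 89.6 CPM in CTL + ATRA cells and 66.0, 72.3 and 63.3 CPM in CTL W/O ATRA cells. The knockout group without ATRA was thus the low one, and ATRA brought it close to the controls (interaction 1.22 ± 0.09, adjusted p = 4.96e-08). Tgm2, the crosslinking enzyme transglutaminase 2, had 21.3, 24.2 and 22.7 CPM in KO + ATRA cells and 0.893, 0.798 and 1.39 CPM in KO W/O ATRA cells, against 274, 276 and 277 CPM in CTL + ATRA cells and 116, 117 and 119.7 CPM in CTL W/O ATRA cells. Its interaction of 3.20 ± 0.13 depended on the share of control counts taken out of the knockout libraries. Without the Kdm1a share it was 1.99 with an adjusted p of 0.324 when both knockout groups were treated. It was -0.089 with an adjusted p of 0.974 when KO + ATRA alone was. With a smaller share of 4.36%, set after seeing the data, taken from KO + ATRA alone, it was 2.19 with an adjusted p of 4.35e-08. Dhrs7, a short-chain dehydrogenase, was the 1 member called lower (-0.26 ± 0.07, adjusted p = 0.0361).

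Among 19 retinoid receptors and coregulators 1 was called, 5.26% of the list and near the 4.65% of all tested genes. It was Rarg, the gamma receptor gene, with an interaction of -0.50 ± 0.10 (adjusted p = 4.10e-03). It had 10.3 ± 0.519 CPM in KO + ATRA and 14.5 ± 0.517 CPM in KO W/O ATRA cells, against 13.3 ± 0.586 CPM in CTL + ATRA and 13.2 ± 0.440 CPM in CTL W/O ATRA cells. Of 18 members of the LSD1 complex and its partners, Kdm1a and Gfi1 were called higher, 11.1% of the list. Kdm1a is the knocked-out gene itself. Gfi1 had 349.9 ± 6.14 and 298 ± 3.90 CPM in knockout cells with and without ATRA, against 205 ± 9.34 and 223 ± 8.94 CPM in controls, an interaction of 0.35 ± 0.06 (adjusted p = 4.92e-04). The transforming genes Hoxa9 and Meis1 had interactions of 0.20 ± 0.06 and 0.19 ± 0.06 that missed the threshold (adjusted p = 0.0640 and 0.0824), and counts of both do not tell the transforming copy from the cells' own gene. Spi1, which encodes the master myeloid factor PU.1, had an interaction of 0.02 ± 0.06 (adjusted p = 0.926).

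Of the 35 genes called higher at 2-fold or more, 23 were raised by ATRA in both genotypes and 3 in knockout cells with no call in controls. Sdc1 (chr12:8771396-8793716), the heparan sulfate proteoglycan syndecan 1, had 30.3, 31.5 and 33.2 CPM in KO + ATRA cells and 2.86, 2.59 and 2.89 CPM in KO W/O ATRA cells, against 1.25, 0.780 and 0.837 CPM in CTL + ATRA cells and 0.925, 0.816 and 0.942 CPM in CTL W/O ATRA cells. The 2 control groups overlapped, and the KO + ATRA libraries stood apart from all others. Tsc22d1, a leucine zipper transcription regulator, had 79.1, 85.0 and 85.2 CPM in KO + ATRA cells and 21.6, 21.7 and 20.6 CPM in KO W/O ATRA cells, against 12, 11.2 and 11.8 CPM in CTL + ATRA cells and 7.79, 8.98 and 8.56 CPM in CTL W/O ATRA cells. Here ATRA and the knockout each raised the gene, and the combination was the highest group (interaction 1.49 ± 0.09, adjusted p = 2.90e-09).

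Mmp9 (chr2:164940326-164955850), the matrix metalloproteinase gelatinase B stored in neutrophil granules, had 245, 280.0 and 279 CPM in KO + ATRA cells and 1.34, 2.59 and 2.01 CPM in KO W/O ATRA cells, against 17.9, 15.7 and 14.1 CPM in CTL + ATRA cells and 0.810, 0.781 and 0.824 CPM in CTL W/O ATRA cells. Groups did not overlap, and ATRA raised the gene in both genotypes. Mmp12, the macrophage elastase, likewise had 147 ± 9.86 and 8.28 ± 0.906 CPM in knockout cells with and without ATRA, against 3.49 ± 0.409 and 0.530 ± 0.116 CPM in controls. Klf5, a zinc-finger transcription factor, moved in opposite directions: it had 7.76, 7.45 and 7.31 CPM in KO + ATRA cells and 1.74, 1.44 and 1.87 CPM in KO W/O ATRA cells, against 0.220, 0.173 and 0.440 CPM in CTL + ATRA cells and 0.732, 0.639 and 0.471 CPM in CTL W/O ATRA cells. ATRA raised Klf5 in the knockout and lowered it in controls, where its level was low throughout.

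Other genes of this kind were spread over many functions. Plcl1, an inactive relative of phospholipase C, had 12.6 ± 0.541 and 0.364 ± 0.168 CPM in knockout cells with and without ATRA, against 2.10 ± 0.0873 and 0.373 ± 0.153 CPM in controls. Pde11a, a phosphodiesterase, had 12.6 ± 0.921 and 0.112 ± 0.131 CPM in knockout cells with and without ATRA, against 7.47 ± 0.557 and 0.378 ± 0.0468 CPM in controls. Sorcs2, a sorting receptor, reached a lower level in the knockout, with 231 ± 14.7 and 0.239 ± 0.0723 CPM with and without ATRA, against 291 ± 8.09 and 1.95 ± 0.383 CPM in controls. Its level without ATRA was lower in the knockout too, and in CPM the difference has the other sign (-58.1 CPM). Plcl1, Pde11a and Sorcs2 all lay under 1 CPM in KO W/O ATRA cells, so their interactions rest on few counts there.

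Abcb1a, a multidrug efflux pump, and Ednra, the type A endothelin receptor, were lowered by the knockout and raised by ATRA. Abcb1a had 41.6 ± 1.48 and 8.13 ± 1.22 CPM in knockout cells with and without ATRA, against 87.5 ± 3.09 and 54.1 ± 3.25 CPM in controls (interaction 1.65 ± 0.10). In CPM its rise with ATRA was nearly equal in both genotypes (a difference of 0.032 CPM), so this interaction rests on the log2 scale. Ednra had 14.3 ± 1.79 and 2.94 ± 0.149 CPM in knockout cells with and without ATRA, against 43.4 ± 3.64 and 26 ± 1.04 CPM in controls (interaction 1.53 ± 0.14). By contrast Chst15, a chondroitin sulfotransferase, had similar levels in both genotypes without ATRA. It had 56.3 ± 1.31 and 3.50 ± 0.233 CPM in knockout cells with and without ATRA, against 23.7 ± 1.67 and 3.31 ± 0.314 CPM in controls (interaction 1.16 ± 0.14, adjusted p = 1.46e-05). Myo6, an actin motor, had an interaction of 1.35 ± 0.26, with low control levels of 1.95 ± 0.507 CPM with ATRA and 1.12 ± 0.166 CPM without it.

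**Figure D2:**
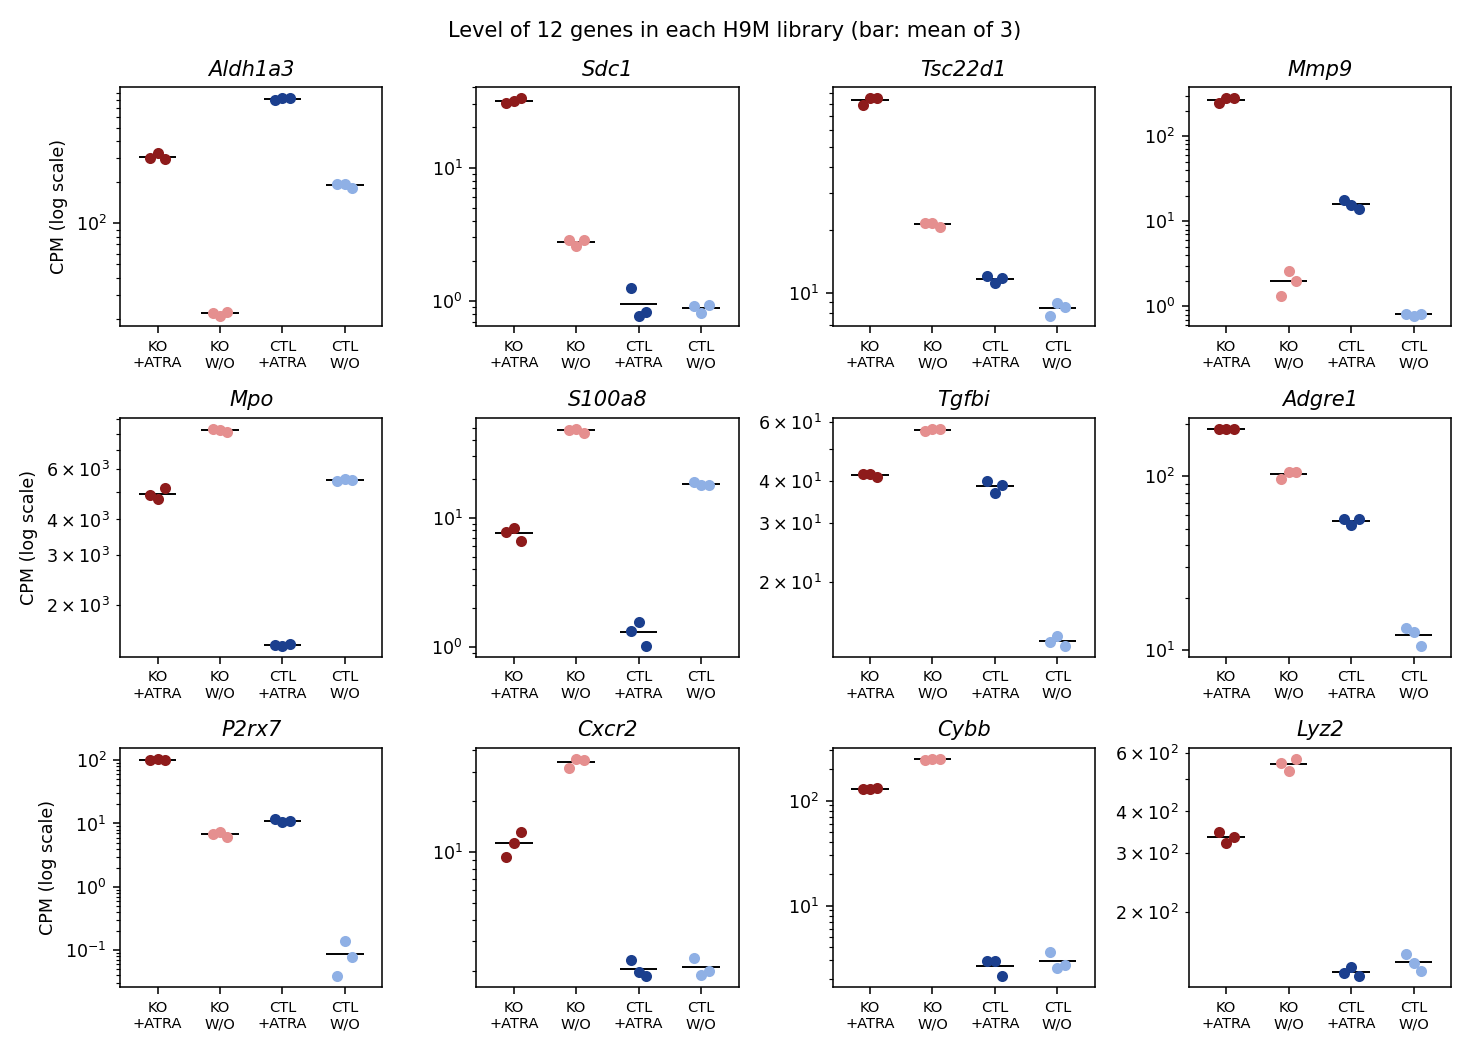
Level of 12 genes in each of the 12 H9M libraries, in CPM on a log scale with its own range for each gene. Points are libraries and bars the mean of 3; from left to right the groups are KO + ATRA, KO W/O ATRA, CTL + ATRA and CTL W/O ATRA. Sdc1 and Tsc22d1 are highest in KO + ATRA cells, Mpo is lowest in CTL + ATRA cells, and Cxcr2, Cybb and Lyz2 differ with ATRA in knockout cells and overlap between the 2 control groups.

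A separate set of interactions called higher came from genes that ATRA lowered, and lowered less in the knockout. Mpo (chr11:87793784-87804412), the myeloperoxidase of primary granules, had 4888, 4734 and 5160 CPM in KO + ATRA cells and 8357, 8291 and 8112 CPM in KO W/O ATRA cells, against 1450, 1434 and 1454 CPM in CTL + ATRA cells and 5481, 5555 and 5510 CPM in CTL W/O ATRA cells. No groups overlapped. ATRA lowered Mpo by 0.71 in knockout cells and by 1.89 in control cells on the log2 scale, an interaction of 1.18 ± 0.04 (adjusted p = 1.39e-13). Tspoap1, a gene beside Mpo on chromosome 11, followed the same order with 51.7 ± 2.10 and 120.3 ± 5.69 CPM in knockout cells with and without ATRA, against 16.6 ± 2.15 and 79.9 ± 6.51 CPM in controls.

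Primary granule genes, the antimicrobial proteases and their partners made by promyelocytes, had the highest share of calls of the program lists. Of 13 tested, 6 were called higher and 1 lower, 53.8% against 4.65% of all tested genes, with a median interaction of 0.26 against 0.01. Besides Mpo, Prss57 had 48.3 ± 0.525 and 39.7 ± 1.04 CPM in knockout cells with and without ATRA, against 40.3 ± 0.885 and 48.2 ± 1.5 CPM in controls. ATRA thus raised this serine protease in the knockout and lowered it in controls (interaction 0.53 ± 0.06, adjusted p = 1.60e-05). Prtn3, proteinase 3, had 2211 ± 36.9 and 1801 ± 34.5 CPM in knockout cells with and without ATRA, against 1995 ± 96.7 and 1966 ± 75.0 CPM in controls (interaction 0.26 ± 0.05). Elane, neutrophil elastase, had 1371 ± 79.1 and 2296 ± 33.2 CPM in knockout cells with and without ATRA, against 1253 ± 11.6 and 2447 ± 39.8 CPM in controls, a smaller interaction of 0.21 ± 0.05 (adjusted p = 0.0127). Srgn, the granule proteoglycan serglycin, and Ms4a3, a membrane protein of granulocyte-monocyte progenitors, had interactions of 0.33 ± 0.08 and 0.27 ± 0.07. Cst7, a cathepsin inhibitor, was called lower at -0.22 ± 0.05. When 1 library at a time was left out, 4 to 6 members were called higher.

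Neutrophil maturation genes were mixed. Of 16 tested, 3 were called higher and 2 lower, 31.2% against 4.65% of all tested genes. S100a8 (chr3:90669071-90670034), a subunit of the calcium-binding protein calprotectin, had 7.81, 8.4 and 6.66 CPM in KO + ATRA cells and 48.0, 49.3 and 45.8 CPM in KO W/O ATRA cells, against 1.32, 1.56 and 1.01 CPM in CTL + ATRA cells and 19.0, 18.1 and 18 CPM in CTL W/O ATRA cells. ATRA lowered it in both genotypes, by 2.61 in knockout and 3.77 in control cells (interaction 1.16 ± 0.17, adjusted p = 1.41e-04), although in CPM the fall was larger in the knockout. Ly6g, a surface marker of neutrophils, had 28.1 ± 3.42 and 8.45 ± 0.243 CPM in knockout cells with and without ATRA, against 2.98 ± 0.489 and 1.71 ± 0.317 CPM in controls (interaction 0.94 ± 0.22, adjusted p = 0.0131). Mmp9 was the third call in this direction. Lcn2, the iron-siderophore binding protein lipocalin 2, was called lower at -0.31 ± 0.07 (adjusted p = 0.0102), as was Cxcr2, described below.

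Monocyte and macrophage genes were called lower more often than higher. Of 19 tested, 6 were called lower and 1 higher, 36.8% against 4.65% of all tested genes. After either removal of the Kdm1a share 5 were called lower, and 5 to 6 when 1 library at a time was left out. Adgre1, the macrophage surface protein F4/80, had 188, 188 and 188 CPM in KO + ATRA cells and 96.2, 106 and 106 CPM in KO W/O ATRA cells, against 56.8, 52.7 and 57.1 CPM in CTL + ATRA cells and 13.5, 12.6 and 10.6 CPM in CTL W/O ATRA cells. It was highest in KO + ATRA cells with no overlap between groups, yet the fold rise with ATRA was smaller in the knockout, 0.91 against 2.23 on the log2 scale (interaction -1.32 ± 0.08, adjusted p = 2.88e-09). In CPM the difference has the other sign (42.1 CPM). F13a1, coagulation factor XIII subunit A, was lowered by ATRA in both genotypes and further in the knockout, with 121 ± 2.71 and 501 ± 4.73 CPM with and without ATRA, against 53.2 ± 1.66 and 149 ± 4.85 CPM in controls (interaction -0.57 ± 0.05, adjusted p = 5.93e-07).

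The other monocyte genes called lower were Cd14, the lipopolysaccharide coreceptor (-0.37 ± 0.08), Cd68, a lysosomal glycoprotein (-0.32 ± 0.08), Ccr2, the receptor that draws monocytes into tissue (-0.54 ± 0.12), and Klf4, a transcription factor of the monocyte lineage. Klf4 was low throughout, with 0.355, 0.158 and 0.252 CPM in KO + ATRA cells and 2.28, 2.43 and 2.23 CPM in KO W/O ATRA cells, against 0.404, 0.477 and 0.264 CPM in CTL + ATRA cells and 0.308, 0.248 and 0.510 CPM in CTL W/O ATRA cells. The KO W/O ATRA libraries stood above all others, and the other 3 groups overlapped. Ly6c2, the antigen of inflammatory monocytes, was the 1 member called higher. It had 1899 ± 40.7 and 2757 ± 55.0 CPM in knockout cells with and without ATRA, against 544 ± 11.1 and 1153 ± 26 CPM in controls (interaction 0.54 ± 0.04, adjusted p = 1.06e-07).

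Of 29 tested targets of PU.1, 8 were called lower and 1 higher, 31.0% of the list against 4.65% of all tested genes. Their median interaction was -0.04 against 0.01 over all tested genes. After either removal of the Kdm1a share 6 were called lower, and 6 to 9 when 1 library at a time was left out. Cxcr2, the neutrophil receptor for CXCL chemokines, had 9.36, 11.3 and 13.2 CPM in KO + ATRA cells and 31.4, 35.6 and 34.9 CPM in KO W/O ATRA cells, against 2.31, 1.95 and 1.85 CPM in CTL + ATRA cells and 2.39, 1.88 and 2.00 CPM in CTL W/O ATRA cells. The knockout groups did not overlap and the control groups did (interaction -1.57 ± 0.22, adjusted p = 1.07e-04). Lyz2, the lysozyme of myeloid cells, had 348, 322 and 334 CPM in KO + ATRA cells and 558, 528 and 575 CPM in KO W/O ATRA cells, against 130.2, 136 and 128 CPM in CTL + ATRA cells and 149, 140.1 and 133 CPM in CTL W/O ATRA cells (interaction -0.64 ± 0.06, adjusted p = 1.94e-06). Here too ATRA lowered the gene in the knockout and the control groups overlapped.

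Cybb, which encodes the superoxide-producing subunit of the phagocyte oxidase, had 129, 128 and 130.4 CPM in KO + ATRA cells and 244, 247 and 248.9 CPM in KO W/O ATRA cells, against 2.94, 2.95 and 2.11 CPM in CTL + ATRA cells and 3.62, 2.56 and 2.71 CPM in CTL W/O ATRA cells. Its interaction was -0.80 ± 0.15 (adjusted p = 1.96e-03), within a knockout difference that stayed far larger than the ATRA effect. The oxidase subunit Ncf1 went the other way, with 466 ± 9.65 and 208 ± 3.55 CPM in knockout cells with and without ATRA, against 395 ± 6.44 and 219 ± 2.84 CPM in controls (interaction 0.31 ± 0.05, adjusted p = 1.66e-04). These were the only 2 of 8 tested oxidase genes to be called. Tlr2, Cd14, Cd68 and Irf8 were further PU.1 targets called lower. Irf8, the transcription factor that sets monocyte against granulocyte fate, had 353 ± 13.6 and 395 ± 5.46 CPM in knockout cells with and without ATRA, against 9.26 ± 0.584 and 8.06 ± 0.616 CPM in controls (interaction -0.37 ± 0.08, adjusted p = 0.0101).

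Receptors for cytokines and chemokines had the next highest share of calls among the program lists. Of 29 tested, 10 were called lower and 4 higher, 48.3% of the list against 4.65% of all tested genes. ATRA lowered 16 of the 29 in knockout cells and 5 in control cells. Over all tested genes it lowered 14.1% in knockout and 11.5% in control cells. Csf2rb, the shared beta chain of the interleukin 3, interleukin 5 and GM-CSF receptors, had 665 ± 22.2 and 948 ± 55.3 CPM in knockout cells with and without ATRA, against 533 ± 12.9 and 561 ± 4.27 CPM in controls (interaction -0.45 ± 0.06, adjusted p = 2.34e-05). Il6st, the signalling chain gp130 of the interleukin 6 family, had 64.6 ± 1.77 and 126 ± 4.47 CPM in knockout cells with and without ATRA, against 6.63 ± 0.659 and 7.63 ± 0.107 CPM in controls (interaction -0.77 ± 0.10, adjusted p = 3.61e-05). Il4ra, Il10ra, Ccr1, Ccr2, Cxcr2, Csf2rb2, Il1r1 and Il1r2 were the others called lower.

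Those called higher were Tnfrsf1b, Cxcr4, Ifngr1 and Kit. Tnfrsf1b, a receptor for tumour necrosis factor, had 122 ± 5.25 and 142 ± 1.25 CPM in knockout cells with and without ATRA, against 102 ± 0.640 and 179 ± 3.05 CPM in controls (interaction 0.58 ± 0.05, adjusted p = 7.76e-07). Cxcr4, which holds progenitors in the marrow, had 135 ± 2.09 and 140.2 ± 2.23 CPM in knockout cells with and without ATRA, against 95.5 ± 1.83 and 133 ± 1.14 CPM in controls (interaction 0.41 ± 0.05, adjusted p = 1.23e-05). For both genes the fall with ATRA in controls was smaller, or not called, in the knockout. Kit, the stem cell factor receptor, had an interaction of 0.24 ± 0.05 that no longer passed the test after removal of the Kdm1a share from both knockout groups (0.17, adjusted p = 0.0930).

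Innate sensing gave a similar split, in a list that shares the called genes Cd14 and Tlr2 with the PU.1 targets. Of 28 tested receptors for microbial patterns and Fc, 7 were called lower and 2 higher. That was 32.1% of the list against 4.65% of all tested genes. Clec4d, a C-type lectin of macrophages, had 73.1, 73.8 and 71.9 CPM in KO + ATRA cells and 136, 129 and 136 CPM in KO W/O ATRA cells, against 34.2, 36.5 and 33.8 CPM in CTL + ATRA cells and 35.5, 31.1 and 27.3 CPM in CTL W/O ATRA cells (interaction -1.03 ± 0.09, adjusted p = 2.99e-07). The control groups overlapped and the knockout groups did not. Clec12a, an inhibitory lectin, was called higher, with 253 ± 12.7 and 281 ± 10.9 CPM in knockout cells with and without ATRA, against 26.8 ± 2.81 and 59.2 ± 2.03 CPM in controls (interaction 0.98 ± 0.08, adjusted p = 1.31e-07). Among 22 interleukins and chemokines, 4 were called lower, 18.2% against 4.65% of all tested genes. Spp1, the matrix cytokine osteopontin, had 16.3 ± 1.54 and 29.7 ± 0.901 CPM in knockout cells with and without ATRA, against 15.0 ± 1.35 and 12.9 ± 1.01 CPM in controls (interaction -1.09 ± 0.11, adjusted p = 2.61e-06). Ccl6, a myeloid chemokine, had an interaction of -1.02 ± 0.17, and Ccl9 one of -0.39 ± 0.06.

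Several genes responded to ATRA in opposite directions in the 2 genotypes, 57 of the 2221 called in both ATRA effects. All 57 had a called interaction, which follows largely from how the interaction is formed. Tgfbi (chr13:56609586-56639359), a secreted matrix protein induced by TGF-beta, had 42.0, 42.1 and 41.1 CPM in KO + ATRA cells and 56.3, 57.4 and 57.2 CPM in KO W/O ATRA cells, against 40.003, 36.9 and 38.9 CPM in CTL + ATRA cells and 13.3, 13.8 and 12.9 CPM in CTL W/O ATRA cells. ATRA brought the 2 genotypes to similar levels from opposite sides (interaction -1.99 ± 0.07, adjusted p = 1.39e-13). Slfn5, a Schlafen family gene, had 21.7 ± 1.19 and 30.7 ± 2.16 CPM in knockout cells with and without ATRA, against 2.36 ± 0.400 and 1.22 ± 0.181 CPM in controls. Il1rn, the natural antagonist of interleukin 1, had 8.38 ± 0.651 and 12.54 ± 1.06 CPM in knockout cells with and without ATRA, against 9.47 ± 1.94 and 6.57 ± 0.427 CPM in controls. Both were thus lowered by ATRA in the knockout and raised in controls (interactions -1.47 ± 0.20 and -1.12 ± 0.17).

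Prdx4, a peroxiredoxin of the endoplasmic reticulum, Lgals3, the lectin galectin 3, and Trpm2, a calcium-permeable channel, had the same pattern. Prdx4 had 77.5 ± 3.22 and 99.4 ± 3.76 CPM in knockout cells with and without ATRA, against 31.8 ± 2.41 and 22.2 ± 0.691 CPM in controls (interaction -0.89 ± 0.08). Lgals3 had 117 ± 0.585 and 161 ± 0.690 CPM in knockout cells with and without ATRA, against 81.0 ± 3.65 and 66.2 ± 8.96 CPM in controls (interaction -0.76 ± 0.09). Trpm2 had 7.16 ± 0.613 and 11.4 ± 0.365 CPM in knockout cells with and without ATRA, against 2.07 ± 0.426 and 1.09 ± 0.211 CPM in controls (interaction -1.60 ± 0.23). In knockout cells ATRA lowered them by 1.25-fold, 1.34-fold and 1.55-fold, so the reversals joined modest effects of opposite sign.

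Another group was raised by ATRA in both genotypes with a smaller fold in the knockout, where the level without ATRA was already high. P2rx7 (chr5:122643927-122692336), the ATP-gated channel that sets off the inflammasome, had 102, 104 and 101 CPM in KO + ATRA cells and 6.87, 7.38 and 6.08 CPM in KO W/O ATRA cells, against 11.7, 10.6 and 11 CPM in CTL + ATRA cells and 0.0385, 0.142 and 0.0785 CPM in CTL W/O ATRA cells. It was highest in KO + ATRA cells, and the rise in CPM was larger in the knockout, so the negative interaction rests on the log2 scale and on few counts in CTL W/O ATRA cells. Sulf2, an enzyme that trims heparan sulfate outside the cell, had 23.3 ± 0.773 and 7.95 ± 0.992 CPM in knockout cells with and without ATRA, against 8.65 ± 0.843 and 0.389 ± 0.00357 CPM in controls. Slc11a1, the phagosomal metal transporter NRAMP1, had 75.6, 74.8 and 71.0 CPM in KO + ATRA cells and 77.2, 83.4 and 85.6 CPM in KO W/O ATRA cells, against 8.33, 7.5 and 7.88 CPM in CTL + ATRA cells and 2.74, 3.30 and 2.28 CPM in CTL W/O ATRA cells. ATRA raised Slc11a1 in controls, its effect in the knockout did not pass the test, and the interaction was -1.67 ± 0.12 (adjusted p = 3.25e-08).

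The remaining genes with large negative interactions included Arg2, a mitochondrial arginase (-1.15 ± 0.15), Lmna, which encodes lamins A and C (-1.68 ± 0.22), Aqp9, a channel for water and glycerol (-1.60 ± 0.27), and Stab1, a scavenger receptor (-1.26 ± 0.24). All 4 were raised by the knockout without ATRA and lowered by ATRA in knockout cells, and their ATRA effect in controls was not called. Arg2, for example, had 10.8 ± 0.0347 and 22.6 ± 1.31 CPM in knockout cells with and without ATRA, against 3.88 ± 0.569 and 3.72 ± 0.421 CPM in controls. The acute-phase gene Saa3 had 3.41 ± 0.327 and 15.4 ± 0.391 CPM in knockout cells with and without ATRA, against 0.620 ± 0.102 and 0.705 ± 0.279 CPM in controls. Zbp1, a sensor of nucleic acids, instead rose with ATRA in both genotypes and less in the knockout (interaction -1.16 ± 0.22), with 5.82 ± 0.153 and 3.07 ± 0.662 CPM with and without ATRA, against 10.1 ± 1.47 and 2.39 ± 0.250 CPM in controls.

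**Figure D3:**
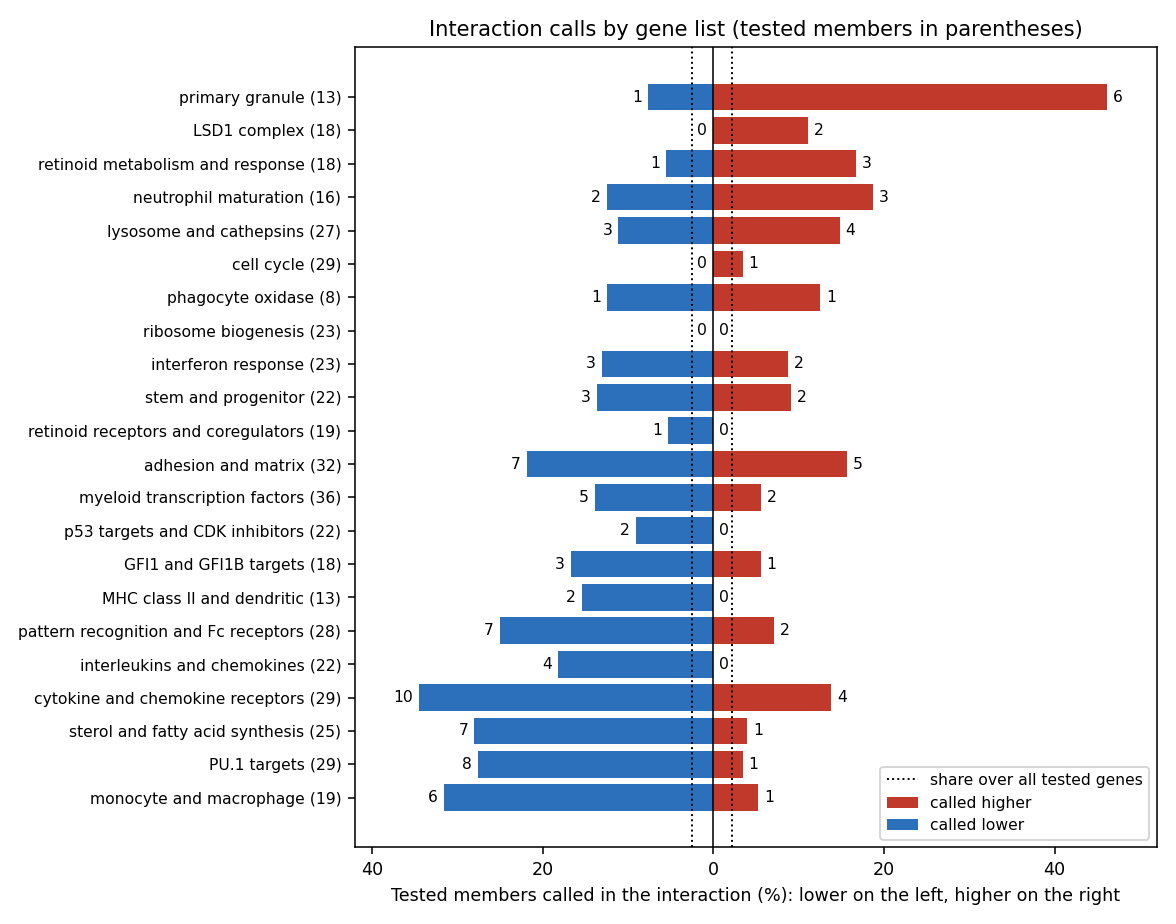
Share of the tested members of each program list with a called interaction, in percent, called lower in blue on the left and called higher in red on the right; the number of genes stands at the end of each bar and the number tested in parentheses. Dotted lines mark the shares over all tested genes, 2.46% lower and 2.19% higher. Primary granule genes reach furthest to the right with 6 of 13, and cytokine receptors, monocyte genes, sterol genes and PU.1 targets furthest to the left with 10 of 29, 6 of 19, 7 of 25 and 8 of 29.

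Over all program lists together, 97 of the 426 tested members had a called interaction. Each gene is counted once there, although some, such as Cxcr2, are in more than 1 list. The share over all tested genes was 4.65%, with 2.19% called higher and 2.46% called lower. The list counts that follow are to be read beside these shares. The lists were chosen for myeloid and retinoid biology with earlier results of these data known, so that share describes the choice as well as the cells. Adhesion and matrix genes had 5 of 32 called higher and 7 lower, among them Itgb7, an integrin chain (-0.58 ± 0.10), and Thbs1, thrombospondin 1 (-0.73 ± 0.08). Genes of sterol and fatty acid synthesis had 7 of 25 called lower and 1 higher, all small. Scd1, the desaturase that makes oleic acid, had 85.7 ± 6.90 and 75.8 ± 2.45 CPM in knockout cells with and without ATRA, against 217 ± 18.1 and 140.1 ± 2.02 CPM in controls (interaction -0.46 ± 0.08, adjusted p = 9.31e-04). Hmgcs1, an enzyme of the early cholesterol pathway, had an interaction of -0.27 ± 0.06. The cholesterol exporter Abcg1 was the 1 member called higher (0.29 ± 0.06).

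Lysosomal genes were split, with 4 of 27 called higher and 3 lower. The cathepsin Ctsb, the membrane protein Lamp1, the acid lipase Lipa and the proton pump subunit Tcirg1 were called higher by 0.24 to 0.35. Ctsc, which activates granule proteases, had 116 ± 0.958 and 185 ± 4.10 CPM in knockout cells with and without ATRA, against 98.8 ± 1.34 and 101 ± 0.824 CPM in controls (interaction -0.65 ± 0.05, adjusted p = 4.83e-08). Ctsl was called lower at -0.53 ± 0.06, and Slc11a1 was the third. Stem and progenitor genes had 2 of 22 called higher and 3 lower. Myc had 269 ± 7.91 and 370.3 ± 10.3 CPM in knockout cells with and without ATRA, against 409.9 ± 3.73 and 437 ± 14.2 CPM in controls (interaction -0.38 ± 0.05, adjusted p = 6.34e-05), and Gata2, a transcription factor of early progenitors, had an interaction of -0.43 ± 0.07.

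Myeloid transcription factors had 2 of 36 called higher and 5 lower, among them Fosl2, an AP-1 subunit, with 34.4 ± 2.59 and 43.7 ± 3.29 CPM in knockout cells with and without ATRA, against 22.9 ± 1.39 and 16.4 ± 0.605 CPM in controls (interaction -0.82 ± 0.10, adjusted p = 2.35e-05). Interferon response genes had 2 of 23 called higher and 3 lower. Class II antigen presentation had 2 of 13 called lower, H2-Ab1 (-0.46 ± 0.08) and H2-Ob (-0.65 ± 0.10). The GFI1 and GFI1B targets had 1 of 18 called higher, Gfi1 itself, and 3 lower, Id1, Irf8 and Socs3. The p53 targets and CDK inhibitors had 2 of 22 called lower, 9.09% of the list, including Plk2, a polo-like kinase (-1.02 ± 0.19).

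Of 29 cell cycle genes 1 was called, 3.45% against 4.65% of all tested genes. Up to 4 were called higher when 1 library was left out. An unadjusted p under 0.05 was reached by 9 of the 29, against 2018 of all 13310 tested genes. The list thus held a larger share of such genes than all tested genes did, although few passed the adjusted threshold. The call was Ccnd2, cyclin D2, with 320.4 ± 14.6 and 199.8 ± 1.35 CPM in knockout cells with and without ATRA, against 225 ± 4.33 and 226 ± 4.08 CPM in controls (interaction 0.68 ± 0.05, adjusted p = 5.06e-08). None of 23 ribosome biogenesis genes was called by edgeR's quasi-likelihood test or by DESeq2, and their interactions lay between -0.11 and 0.18. An unadjusted p under 0.05 was reached by 2 of the 23, a smaller share than over all tested genes.

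To set sequence beside these results, promoters were read from RefSeq (GRCm38.p6), 250 bases before to 50 after each annotated start. Of the 95 genes covered by the naming rule 66 had a promoter there. Both strands were searched for core sequences of PU.1, C/EBP and GFI1 and for retinoic acid response elements. Among genes with a promoter, the GFI1 core AAATC was in 29.8% of those called higher and 36.5% of those called lower. It was in 31.4% of all tested genes. The C/EBP palindrome TTGCGCAA was in 0.465%, 0% and 0.356% of these sets. The match marked below is GAGGAAGT, a core sequence bound by PU.1. It was present in 6.51% of the genes called higher that have a promoter (14 of 215), in 6.27% of those called lower (16 of 255), and in 4.04% of all tested genes. Over all genes with a promoter in the table the share was 3.69%. The 4 genes below are the named ones with an interaction of 2-fold or more and such a match, Mpo and S100a8 called higher, P2rx7 and Spp1 called lower; the match is in capitals, as GAGGAAGT or its reverse complement. They are Mpo (chr11:87793534-87793833, plus strand, match at -224 to -217 from the start), S100a8 (chr3:90668821-90669120, plus strand, -172 to -165), P2rx7 (chr5:122650133-122650432, plus strand, 4 to 11 bases past the start of a downstream transcript) and Spp1 (chr5:104434861-104435160, plus strand, -113 to -106).
Mpo: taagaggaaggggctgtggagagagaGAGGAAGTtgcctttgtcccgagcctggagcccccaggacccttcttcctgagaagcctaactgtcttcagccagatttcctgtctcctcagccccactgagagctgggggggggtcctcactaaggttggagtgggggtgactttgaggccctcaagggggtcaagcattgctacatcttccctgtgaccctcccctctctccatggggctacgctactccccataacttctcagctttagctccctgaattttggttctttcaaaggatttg
S100a8: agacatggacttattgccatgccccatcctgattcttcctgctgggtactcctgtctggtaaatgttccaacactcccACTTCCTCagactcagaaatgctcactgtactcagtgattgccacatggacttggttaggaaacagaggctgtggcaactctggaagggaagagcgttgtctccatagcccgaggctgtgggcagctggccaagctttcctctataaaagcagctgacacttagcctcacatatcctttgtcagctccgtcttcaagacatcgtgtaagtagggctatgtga
P2rx7: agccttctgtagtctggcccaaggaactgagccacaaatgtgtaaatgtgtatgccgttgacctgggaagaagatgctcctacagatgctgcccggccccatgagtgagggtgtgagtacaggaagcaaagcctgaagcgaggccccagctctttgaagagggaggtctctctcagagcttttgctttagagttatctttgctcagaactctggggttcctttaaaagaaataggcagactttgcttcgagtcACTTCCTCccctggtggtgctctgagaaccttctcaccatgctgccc
Spp1: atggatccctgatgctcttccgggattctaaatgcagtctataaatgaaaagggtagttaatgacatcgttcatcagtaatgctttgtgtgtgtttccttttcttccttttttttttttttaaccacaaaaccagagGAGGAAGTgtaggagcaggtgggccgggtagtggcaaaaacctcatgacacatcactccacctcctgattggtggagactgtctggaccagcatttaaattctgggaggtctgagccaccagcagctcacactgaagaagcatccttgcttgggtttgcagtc
The matches lay at different distances from the start and on either strand, and occurred in genes of both directions. A match is a description of the letters in this window and does not show binding. The retinoic acid response elements named DR5 and DR2 were rare in this window, present in 5 and 10 of the 9541 tested genes that have a promoter and in none of the called genes.

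The transcripts left in the KO + ATRA libraries bear on each result, so their share of the control counts was removed and the fit repeated. With removal from both knockout groups, 273 of the 292 genes called higher and 281 of the 327 called lower kept their call and direction. With removal from KO + ATRA libraries alone, 269 and 281 did. Removal takes the share of every gene to equal that of Kdm1a, and Thbs1 limits it further, with 42.1 CPM in KO + ATRA and 967 CPM in CTL + ATRA cells, 4.36%. With that smaller share taken from KO + ATRA libraries, a choice made after seeing the data, 280 and 296 kept their call. Of the 83 named genes with a called interaction, 80 were called after removal from both knockout groups. Tgm2, Kit and Pf4 were not. Kdm1a, which the removal itself takes to 0, is not among the 83. Counts in the gene lists moved too. After either removal of the Kdm1a share, 2 GFI1 and GFI1B targets were called lower and 2 higher. Of the myeloid transcription factors, 4 were then called lower and 4 higher.

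**Figure D4:**
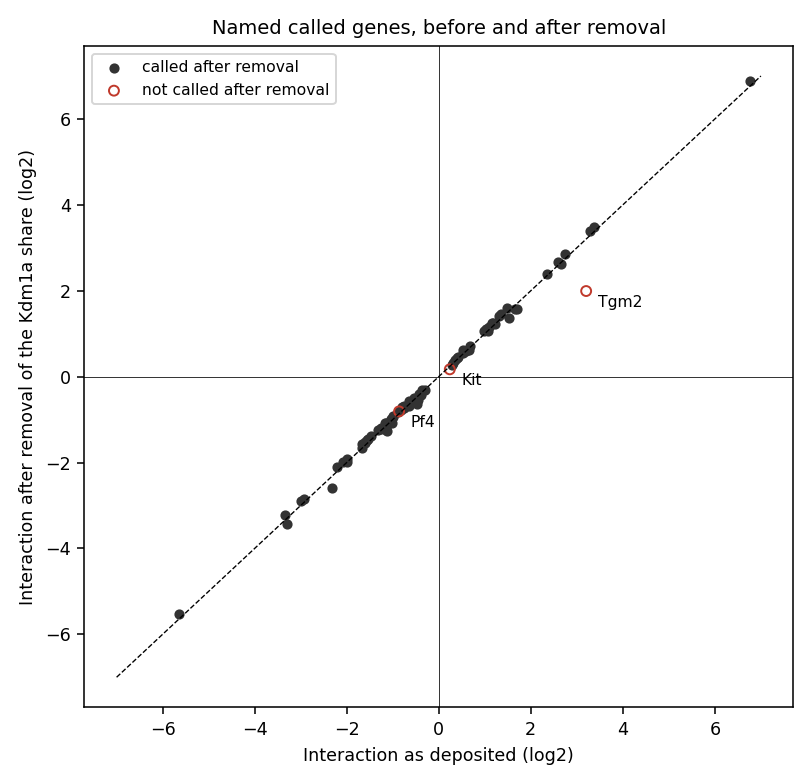
Interaction of the 83 named genes with a called interaction (log2), after removal of the Kdm1a share of control counts from both knockout groups (vertical axis) against the value from the deposited counts (horizontal axis); the dashed line marks equality. Filled points were called after removal (80 genes) and open red points were not; Kdm1a is left out. Tgm2 lies furthest from the line.

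Markers of other blood and stromal cells were examined as a check on the label of myeloid progenitors. The B cell genes Ms4a1, Pax5 and Rag1, the T cell genes Cd3e, Cd3g and Cd8a, the globin genes Hba-a2 and Hbb-bs and the stromal genes Col3a1, Dcn and Lum had no count in any of the 12 libraries. The 5 megakaryocyte genes tested included 2 called lower, Pf4 and Itgb3. The summed level of the 12 listed megakaryocyte genes was 72.4 to 76.0 CPM in KO + ATRA and 75.7 to 78.2 CPM in KO W/O ATRA cells, against 75.7 to 78.4 CPM in CTL + ATRA and 60.0 to 62.9 CPM in CTL W/O ATRA cells, lowest in controls without ATRA. The 10 B cell genes summed to 5.55 to 6.59 CPM in KO + ATRA and 3.21 to 3.67 CPM in KO W/O ATRA cells, against 29.6 to 31.9 CPM in CTL + ATRA and 19.2 to 19.8 CPM in CTL W/O ATRA cells. Ebf1, an early B lineage factor, was the most abundant of them. Of the 5 B cell and 3 eosinophil genes tested none was called by edgeR's quasi-likelihood test or by DESeq2. In each list 1 had an unadjusted p under 0.05, and after removal of the Kdm1a share 1 B cell gene was called lower. Of 6 mast cell and basophil genes tested, Kit was called higher and Gata2 lower. The 13 listed summed to 430 to 443 CPM in KO + ATRA and 395 to 405 CPM in KO W/O ATRA cells. In controls they summed to 362 to 363 CPM with ATRA and 359 to 370 CPM without it. The 12 erythroid genes, led by Tfrc, the transferrin receptor, summed to 691 to 803 CPM in KO + ATRA and 707 to 759 CPM in KO W/O ATRA cells, against 435 to 557 CPM in CTL + ATRA and 632 to 688 CPM in CTL W/O ATRA cells. The 13 T and NK cell genes, led by Thy1, summed to 353 to 357 CPM in KO + ATRA and 419.7 to 442 CPM in KO W/O ATRA cells, against 366 to 386 CPM in CTL + ATRA and 371 to 377 CPM in CTL W/O ATRA cells. The 12 stromal genes, led by Pecam1, which blood cells also express, summed to 809 to 889.9 CPM in KO + ATRA and 618 to 629.9 CPM in KO W/O ATRA cells, against 874 to 909 CPM in CTL + ATRA and 643 to 659.8 CPM in CTL W/O ATRA cells. The erythroid sum was lowest in CTL + ATRA cells, the T and NK cell sum was highest in KO W/O ATRA cells, and the stromal sum was higher with ATRA in both genotypes. Calls in these lists were Tfrc, called higher, and Thy1 and Pdgfra, called lower. The part of other cell types in the results was not tested.

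The same interaction was measured in progenitors transformed by MN1, fitted on their own 12 libraries with the same groups. There 405 of 13855 genes were called (2.92%), 171 higher and 234 lower. Of the 619 genes called in H9M cells, 598 were tested in MN1 cells and 109 were called, which is 18.2% of them against 2.91% of all genes tested in both. Those 109 are 29.8% of the 366 genes called in MN1 cells and tested in H9M cells. The direction was the same for 90 and opposite for 19. Tgm2 (interaction 2.20 in MN1 cells) and P2rx7 were called in both, in the same direction. MN1 knockout libraries had 2.14 ± 0.264 CPM of Kdm1a with ATRA and 1.42 ± 0.149 CPM without it, against 197 ± 5.44 and 191 ± 2.95 CPM in MN1 controls (SD, n = 3 each).

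The difference between the 2 interactions was tested in a model of all 24 libraries. It was called for 292 of 14663 genes (1.99%), 162 higher and 130 lower in H9M cells, and for 186 of the 619. For Mpo the interaction was 1.18 ± 0.04 in H9M and 0.01 in MN1 cells, a difference of 1.17 (adjusted p = 3.89e-12). MN1 cells had 1349 ± 91.6 and 2251 ± 48.4 CPM of Mpo in knockout cells with and without ATRA, against 631 ± 17.5 and 1071 ± 26.1 CPM in controls, so ATRA lowered it by about the same factor in both genotypes. Tgfbi was raised by ATRA in both MN1 genotypes, with 15.1 ± 1.24 and 10.0 ± 0.633 CPM in knockout cells with and without ATRA, against 68.7 ± 4.91 and 38.2 ± 0.864 CPM in controls. Its interaction of -0.28 in MN1 cells did not pass the test, and the difference was -1.72 (adjusted p = 2.92e-11). Lyz2 went the other way in MN1 cells, with an interaction of 0.56 (adjusted p = 1.68e-03) and a difference of -1.20. H9M and MN1 libraries carry different tags in the count table. The meaning of the tags is not stated, and each interaction is formed within a tag.

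**Figure D5:**
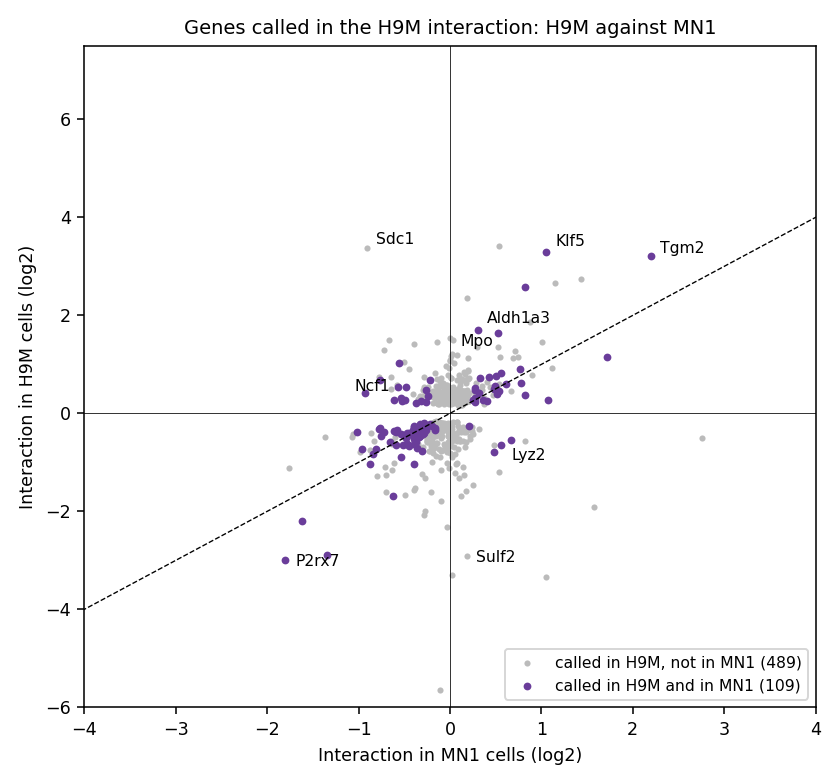
Interaction in H9M cells (vertical axis) against the interaction in MN1 cells (horizontal axis), both log2, for genes called in H9M cells and tested in MN1 cells. Purple points are the 109 genes called in both and grey points the 489 called in H9M cells only; the dashed line marks equality. Tgm2, Klf5 and P2rx7 lie on the same side of 0 in both, whereas Mpo and Sulf2 have MN1 values near 0.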

How the data were processed

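RNA was measured by sequencing of total RNA (TruSeq Stranded Total RNA libraries, paired reads) in 24 libraries, of which the 12 of H9M cells gave the interaction and the 12 of MN1 cells a comparison. The deposited table holds whole-number read counts for 48795 genes, with no normalization by the authors. Reads were aligned with STAR 2.5.3 to mm10, per the submitters' processing notes; for the counting tool, annotation and use of strand, the sources used here name none, so overlapping and antisense genes are uncertain. Gene symbols came from reference tables, which matched 48349 of the 48795 IDs. Other files of the series were not used here.

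Counts were analysed in R 4.3.3 with edgeR 4.0.16 (with limma 3.58.1): filterByExpr with a minimum count of 10, TMM scaling and the quasi-likelihood test on a model of 4 groups with 8 residual degrees of freedom, p-values adjusted by Benjamini-Hochberg over all tested genes and called under 0.05. All adjusted p-values in the text are of this kind unless DESeq2 is named. The MN1 libraries were fitted alone in the same way, and the difference of both interactions came from a model of 24 libraries with 16 residual degrees of freedom. CPM values are counts scaled to the library total; SE is the log2 value divided by the square root of F. The programs were tested on simulated counts with known changes. The interaction was called for 23 of 34 genes at 1.5-fold, 24 of 34 at 2-fold and 30 of 33 at 4-fold. For lowered genes it was called for 18 of 33 at 0.667-fold, 23 of 33 at 0.5-fold and 32 of 33 at 0.25-fold. There were 6 false calls. A gene that was not called can thus still differ.

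The members and gene lists were chosen with earlier results of these data known. Genes named by rule were the 15 with the largest interaction in each direction with at least 1 CPM in every group, the 8 largest with a group under 1 CPM (levels only), 10 with opposite ATRA effects, the first 2 of each list and 5 in each direction from the comparison with MN1 cells, all with at least 5 CPM in the highest group except list members. Other list members were named after their values were seen. Alternatives were RLE scaling, no filter, a minimum count of 50, DESeq2 1.42.0, a replicate block, a model of all 24 libraries, leaving out each library, and removing from knockout libraries the share of control counts that Kdm1a retained. Library totals of 22402558 to 28180054 set the counting error; replicate libraries differed by more than sampling noise and none was a duplicate.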

Additional observations from a re-analysis of the deposited data

Results flagged for a closer look

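The interaction differed between H9M and MN1 cells, by a test of the difference itself in a model of 24 libraries, for 162 genes higher and 130 genes lower in H9M cells. Among the genes named by rule, the difference (H9M minus MN1, log2) was 1.17 for Mpo, 1.39 for Aldh1a3, 1.46 for Tsc22d1 and 1.58 for Rps6ka2, a ribosomal S6 kinase. It was -1.72 for Tgfbi, -3.10 for Sulf2, -1.20 for Lyz2, -0.92 for Prdx4 and -0.60 for Ctsc. Sulf2 had 0.389 CPM in H9M CTL W/O ATRA cells, so its value rests on few counts. The libraries of the 2 cell models carry different tags in the count table, of unstated meaning, and each interaction is formed within a tag.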

How the results depend on the processing

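The interaction was called higher for 292 and lower for 327 genes. The counts stayed within 1.5 times of these under RLE scaling (278 and 356), no filter (372 and 416), a minimum count of 50 (302 and 339), DESeq2 (281 and 366), a model of all 24 libraries (330 and 409), and removal of the Kdm1a share from both knockout groups (322 and 321) or KO + ATRA alone (321 and 328). Leaving out 1 library gave 217 to 301 higher and 241 to 315 lower, and at 2-fold or more 26 to 36 and 37 to 46. It gave 1709 to 2184 higher and 1354 to 2019 lower for ATRA in knockout cells, 1507 to 1879 and 1145 to 1556 for ATRA in controls, 3470 to 3828 and 2898 to 3410 for the knockout with ATRA, and 3364 to 3902 and 3269 to 3710 without it. For MN1 cells it gave 150 to 201 higher and 122 to 247 lower, and for H9M minus MN1 132 to 176 and 108 to 130. The count of 234 genes called lower in MN1 cells was 390 with no filter. It was 154 without KO + ATRA replicate 1, 130 without KO W/O ATRA replicate 1, 148 without KO W/O ATRA replicate 2, 143 without CTL + ATRA replicate 1 and 122 without CTL W/O ATRA replicate 3; the cause was not tested. By construction removal turned the interaction of Kdm1a to -0.14 (both knockout groups) and -7.70 (KO + ATRA), and it took that of Tgm2 to -0.089 (KO + ATRA). No other gene named by rule reversed under any alternative run. Without 1 library, calls were lost for 8 of the genes named by rule. These were Col14a1, Barx2, Pf4, Pdgfra and Gadd45a (8 or 9 of 12 libraries each), Lynx1 (6 of 12), Ifi202b (without CTL + ATRA replicate 3, adjusted p = 0.0817) and P2ry14 (without CTL W/O ATRA replicate 3, adjusted p = 0.0587). Other list members lost calls too. In the retinoid list, where Dhrs7 was the 1 gene called lower, these runs called 0 to 1 lower. With the replicate number as a block, 296 genes were called higher and 340 lower, 593 of the 619 kept their call, and Barx2 was lost (adjusted p = 0.0551). Same-numbered libraries of different groups had correlations of -0.08 to 0.10, against -0.13 to 0.12 for other-numbered ones. Of the 12 libraries, 2 were closest to their own number in every other group. Pairing by number was not shown by these values.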
